A study of Mus musculus with 45 samples.

Results

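The enzymes that write and erase DNA methylation were followed across mouse neural progenitors, cells on the way to induced pluripotency and embryonic stem cells. The set held 10 genes taken by name, Dnmt1, Dnmt3a, Dnmt3b, Dnmt3l, Uhrf1, Uhrf2, Tet1, Tet2, Tet3 and Tdg. All 10 were rows of the deposited gene table of 23575 genes, and 183 of the 276608 transcripts of the deposited transcript table belonged to them.

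Methyl groups on the cytosines of CpG dinucleotides are copied to the new strand after replication by Dnmt1, which Uhrf1 brings to hemimethylated DNA, and are placed on unmethylated DNA by Dnmt3a and Dnmt3b. Dnmt3l has no catalytic activity of its own and stimulates these enzymes in germ cells and early embryos. The Tet enzymes oxidise methylcytosine with 2-oxoglutarate as a substrate, and Tdg cuts out the most oxidised forms, which base excision repair replaces. Mouse embryonic stem cells in serum are known to carry more DNA methylation than those in 2i-LIF.

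The progenitors came from an Oct4-GFP embryonic stem cell line called O4G, itself derived from the line R1, and were kept in NPC medium (N2B27 with EGF, FGF-2 and heparin). Their genotypes were WT, OKMS-Luciferase-AS and OKS-Luciferase-AS, both of the last named carrying stably transfected reprogramming factors that differ by Myc in name; what the luciferase element does, and whether a line is 1 clone, is not given in the sources used here. Factors were induced in serum with LIF and doxycycline (called serum here). Wild-type progenitors held for 2 days in that medium with doxycycline served as the control that does not reprogram. Part of the cultures went on in 2i-LIF, an N2B27 medium with LIF and the kinase inhibitors CHIR-99021 and PD0325901 and with no doxycycline listed; the move was at day 6 for the R9 libraries, and its day is not given for the R10 libraries. The wild-type stem cell lines O4G, R1 and R1-Clone3 were all grown in 2i-LIF, so cell state and medium cannot be told apart between stem cells and progenitors. R9 names 22 direct cDNA libraries of poly(A) RNA, and R10 names 23 PCR cDNA libraries of total RNA. In R9 there were 4 progenitor libraries (2 WT, 1 OKMS, 1 OKS), 2 stem cell libraries (O4G, R1), both factor lines in serum on days 2, 4, 6, 10, 14 and 20, 2i-LIF cultures of OKMS on days 14 and 20 and of OKS on day 20, and 1 wild-type day-2 library. In R10 there were 4 progenitor libraries (2 WT, 1 OKMS, 1 OKS), 7 stem cell libraries (2 O4G, 2 R1-Clone3 and 3 R1, of which 1 carries no replicate number), OKMS in serum on days 2, 4, 6, 10 and 18, OKS in serum on days 2, 6 and 18, both lines in 2i-LIF on day 18, and 2 wild-type day-2 libraries.

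Reads on genes ranged from 447990 to 1390424 per R9 library (median 814717) and from 566599 to 4236442 per R10 library (median 2342551), and 1 read was worth 0.719 to 2.23 CPM in R9. The cell states matched their names in R10, where all 10 pluripotency markers tested were higher and all 8 neural progenitor markers tested were lower in stem cells. The R10 libraries differed in the share of CPM on mitochondrial genes. The 5 libraries of wild-type progenitors, wild-type day-2 cells and the unnumbered R1 stem cells held 0.124 to 0.319%, the 8 factor-line libraries from progenitors to day 10 held 0.73 to 1.64%, and the other 10 held 1.56 to 2.35%, so that the first 5 stood apart. Where the replicates came from is not given, so p-values measure the spread between these libraries, which may be technical. In RNA from whole cultures, fewer cells of a type and less RNA per cell cannot be told apart. CPM does not correct for transcript length, so levels are compared between libraries and not between genes. A gene was called when limma's Benjamini-Hochberg adjusted p over all genes tested was under 0.05 and the difference on the log2(CPM + 1) scale was at least 1 in size. All adjusted p below are of this kind unless stated otherwise.

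In stem cells the maintenance pair stood above its progenitor level. Dnmt1 was at 93.1 in the OKMS line, 85.9 in the OKS line and 133 and 95.5 in wild type, in CPM over the 4 R10 progenitor libraries, and at 158 to 237 CPM (median 196) over the 7 R10 stem cell libraries. The groups did not overlap, with means of 199.7 ± 25.5 CPM (SD, n = 7) and 102 ± 21.0 CPM (SD, n = 4), and the log2 difference of 0.98 (SE 0.139), adjusted p = 1.44e-05, fell short of the fold minimum. It passed with edgeR on recovered reads (1.04), DESeq2 (1.05), median centring (1.21) and without the unnumbered R1 library (1.03). Uhrf1 was at 88.7 in the OKMS line, 77.7 in the OKS line and 114 and 86.9 in wild type, and at 213 to 298 CPM (median 255) in stem cells. Every stem cell library lay above every progenitor library, and Uhrf1 was called, with a log2 difference of 1.49 (SE 0.123), adjusted p = 3.42e-08. Uhrf2, a related protein that does not replace Uhrf1 in maintenance, went the other way, at 30.8 in the OKMS line, 31.5 in the OKS line and 16.8 and 17.2 in wild type, against 7.25 to 22.4 CPM (median 11.9) in stem cells. The wild-type progenitors, of the set with a low mitochondrial share, lay inside the stem cell range through 1 library, O4G replicate 1 at 22.4 CPM, since the other 6 stem cell libraries reached 13.4 CPM at most. The log2 difference of -0.87 (SE 0.264), adjusted p = 0.00838, was under the fold minimum. It was called without O4G replicate 1 (-1.01, adjusted p = 0.00186) and without either wild-type progenitor library (adjusted p = 0.00662 and 0.00789).

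The promoters of this pair are shown because Dnmt1 and Uhrf1 were both called, in the same direction, in wild-type serum and between the factor lines. They are RefSeq windows on GRCm38.p6 from 250 bases before to 50 bases after a start, 5′ to 3′ on the gene's strand, with CpG dinucleotides in capitals. All 10 genes had an entry, with 17 windows between them. The Dnmt1 window is chr9:20952574-20952873 on the minus strand, and the Uhrf1 window is chr17:56303087-56303386 on the plus strand.
Dnmt1: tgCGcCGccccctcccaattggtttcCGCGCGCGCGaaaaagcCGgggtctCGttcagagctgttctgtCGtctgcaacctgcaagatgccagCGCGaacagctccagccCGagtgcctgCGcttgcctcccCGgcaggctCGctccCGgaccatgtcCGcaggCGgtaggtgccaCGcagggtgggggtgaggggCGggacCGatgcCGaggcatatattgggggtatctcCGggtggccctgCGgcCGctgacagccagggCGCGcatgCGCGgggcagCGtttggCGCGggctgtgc
Uhrf1: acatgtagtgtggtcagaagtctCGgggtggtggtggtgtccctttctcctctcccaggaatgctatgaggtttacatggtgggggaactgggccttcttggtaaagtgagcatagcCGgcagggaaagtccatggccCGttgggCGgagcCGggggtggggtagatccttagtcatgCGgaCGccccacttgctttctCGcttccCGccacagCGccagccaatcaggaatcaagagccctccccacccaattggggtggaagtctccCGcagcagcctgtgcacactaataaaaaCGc
The Dnmt1 window held 33 CpG, more than 91.4% of the 32851 RefSeq promoter windows (median 7), and the Uhrf1 window held 12. Of 5 motifs searched on both strands, CCAAT occurred 3 times in each, GGGCGG 2 times in Dnmt1 and 1 time in Uhrf1, TTTGGCGC 1 time in Dnmt1, and TTTCCCGC and CACGTG in neither. In all windows the shares holding them were 37.4% for CCAAT, 35.7% for GGGCGG, 0.514% for TTTGGCGC, 1.07% for TTTCCCGC and 7.15% for CACGTG. The CCAAT count here is by letters alone, and overlaps with the other motifs were not removed. Each window holds CCAATTGG, which reads the same on both strands and was counted on each. Deposited transcripts starting inside the Dnmt1 window summed to 6.98 to 10.1 TPM in R10 progenitors and 17.6 to 57.7 TPM in stem cells, and those in the Uhrf1 window to 5.15 to 8.74 TPM and 9.03 to 30.1 TPM, a description with no test. Over all starts Dnmt1 summed to 24.4 to 37.7 and 67.1 to 151 TPM, and Uhrf1 to 18.2 to 30.7 and 50.8 to 102 TPM. The windows shown thus hold a part of each gene's TPM. Another Uhrf1 window, chr17:56304063-56304362, was at 1.79 to 6.52 and 7.27 to 14.8 TPM.

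The de novo group, Dnmt3a, Dnmt3b and the partner Dnmt3l, was called in both directions. Dnmt3a was lower in stem cells, at 49.6 in the OKMS line, 60.8 in the OKS line and 42.6 and 39.9 in wild type, against 12.5 to 21.3 CPM (median 15.7). The groups did not overlap, and the log2 difference was -1.50 (SE 0.182), adjusted p = 2.55e-06. Dnmt3b went from 2.64 in the OKMS line, 1.75 in the OKS line and 1.27 and 1.43 in wild type to 21.3 to 43.6 CPM (median 30.9), with no overlap and a log2 difference of 3.52 (SE 0.212), adjusted p = 9.3e-10. Dnmt3l gave 0 reads of 10613079 over the 4 progenitor libraries and 1.87 to 23.4 CPM (median 18.1) in stem cells. Its mean of 13.5 ± 9.38 CPM (SD, n = 7) was at least 47.8-fold higher than in progenitors, taken at the 3 reads that a count of 0 over the group allows (counting error alone, since PCR copies are not told apart), and the adjusted p was 2.97e-05. Within stem cells Dnmt3l was uneven, at 3.77 and 5.81 CPM in R1-Clone3 and 1.87 in the unnumbered R1 library, against 18.1 to 23.4 in the other 4.

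The promoters of Dnmt3b and Dnmt3l, the pair called in the time course, differ in CpG content. The Dnmt3b window is chr2:153649199-153649498 and the Dnmt3l window, around the start of Dnmt3l-201, is chr10:78049592-78049891, both on the plus strand, written as above.
Dnmt3b: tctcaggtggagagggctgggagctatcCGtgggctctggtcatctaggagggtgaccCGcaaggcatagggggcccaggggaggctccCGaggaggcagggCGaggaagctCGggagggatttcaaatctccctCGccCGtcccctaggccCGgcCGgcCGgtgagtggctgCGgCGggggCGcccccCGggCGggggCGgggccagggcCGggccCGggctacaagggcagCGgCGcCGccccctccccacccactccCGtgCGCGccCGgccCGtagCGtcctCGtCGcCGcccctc
Dnmt3l: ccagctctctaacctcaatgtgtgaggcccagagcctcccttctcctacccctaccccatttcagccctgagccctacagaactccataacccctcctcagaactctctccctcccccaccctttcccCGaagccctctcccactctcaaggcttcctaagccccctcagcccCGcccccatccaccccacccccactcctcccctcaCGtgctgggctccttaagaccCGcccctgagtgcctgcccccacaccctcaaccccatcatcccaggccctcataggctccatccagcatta
Dnmt3b held 30 CpG and 4 GGGCGG, and Dnmt3l held 4 CpG, 2 GGGCGG and 1 CACGTG; the other motifs were in neither window. Transcripts starting inside the Dnmt3b window were at 0 to 1.02 TPM in R10 progenitors, where 1 library alone was above 0, and at 1.96 to 6.77 TPM in stem cells. Those in the Dnmt3l window were at 0 TPM in all 4 progenitor libraries and at 0.789 to 16.9 TPM in stem cells.

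Among the erasers, Tet1 and Tet2 were higher and Tet3 lower in stem cells. Tet1 was at 62.4 in the OKMS line, 61.3 in the OKS line and 74.6 and 57.1 in wild type, and at 164 to 415 CPM (median 274), a log2 difference of 2.02 (SE 0.206), adjusted p = 3.72e-07. Tet2 was at 11.4 in the OKMS line, 9.93 in the OKS line and 13.7 and 16.9 in wild type, and at 52.5 to 105 CPM (median 97.2), with a log2 difference of 2.64 (SE 0.202), adjusted p = 1.46e-08. Tet3 fell from 16.3 in the OKMS line, 18.1 in the OKS line and 20.3 and 20.1 in wild type to 1.65 to 5.19 CPM (median 4.11), by a log2 difference of -2.10 (SE 0.236), adjusted p = 1.12e-06. None of these 3 genes had overlapping groups. Tdg did not pass the test, at 3.08 in the OKMS line, 5.84 in the OKS line and 6.03 and 6.89 in wild type, against 3.14 to 6.23 CPM (median 4.93), with overlapping groups and a log2 difference of -0.14 (SE 0.243), adjusted p = 0.612.

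In all, 7 of 10 members were called in R10 (5 higher, 2 lower), where 45.8% of the 15415 genes tested were called (22.4% higher, 23.5% lower). The members' median log2 difference was 1.23, against 0.01 over all genes tested; a share of calls is read against that background, and median centring moves all differences up by 0.23. In the R9 libraries 5 of 10 were called, all higher, where 36% of 15746 genes were (17.6% higher, 18.4% lower). Per library, in the order WT, WT, OKMS and OKS, Dnmt3b was at 4.01, 4.84, 0 and 3.37 CPM in progenitors and at 13.3 (O4G) and 24.2 (R1) in stem cells, a log2 difference of 2.49 (SE 0.777), adjusted p = 0.0409. Uhrf1 was at 41.5, 64.9, 53.8 and 37.1 CPM and at 211 (O4G) and 149.8 (R1), a difference of 1.86 (SE 0.268), adjusted p = 0.00195. Dnmt3l was listed at 0 in all 4 progenitor libraries and at 1.89 (O4G) and 5.58 (R1) CPM. Tet1, at 8.02, 18.4, 5.38 and 16.9 CPM and 43.6 (O4G) and 60.5 (R1), and Tet2, at 8.02, 6.78, 9.42 and 6.75 CPM and 16.1 (O4G) and 25.1 (R1), were also called. The 5 R9 calls were all among the 7 R10 calls, in the same direction. Their groups did not overlap in R9, a description for which the share over all genes is not given. Dnmt3a (-1.11, adjusted p = 0.0758) and Tet3 (-1.70, adjusted p = 0.123) had the R10 sign without passing, and Tet3 gave 0 of 2125940 reads in the R9 stem cells. The differences of the other members were 0.68 for Dnmt1, -0.92 for Uhrf2 and -0.76 for Tdg, with adjusted p from 0.00434 to 0.133, all under the fold minimum. With 2 stem cell libraries the R9 calls were fragile: Dnmt3b and Tet1 lost theirs without either stem cell library, Dnmt3b also without the OKS progenitors (adjusted p = 0.0585), Uhrf1 without O4G (adjusted p = 0.0508) and Tet2 without R1 (0.98).

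**Figure D1:**
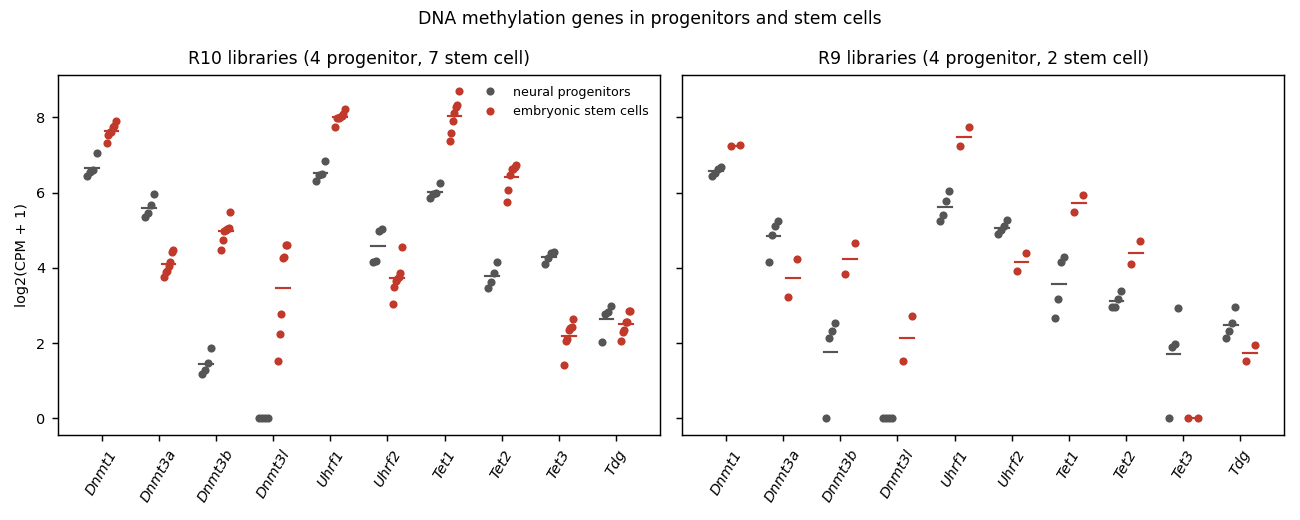
Level of each of the 10 genes, as log2(CPM + 1), in neural progenitors (grey) and embryonic stem cells (red), 1 point per library with a bar at the mean of the group, for R10 (left; n = 4 and 7) and R9 (right; n = 4 and 2). In R10 the groups overlap for Uhrf2 and Tdg and not for the other genes. The share of all genes with separate groups is not given, so separation is a description.

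The contrast was also made within the set of low mitochondrial share, with the 2 wild-type progenitor libraries against the unnumbered R1 library, an alternative chosen after the data were seen. All 10 members kept the sign of their difference. The members called over all libraries lay at -1.47 (Dnmt3a), 3.51 (Dnmt3b), 1.52 (Dnmt3l), 1.09 (Uhrf1), 2.65 (Tet1), 2.45 (Tet2) and -2.05 (Tet3) on the log2 scale. With 1 stem cell library there is no spread on that side, so these are values with no test.

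The genes around these enzymes moved in both directions in R10 stem cells. Of 15 regulators tested, 8 were higher and 2 lower. The largest rises were of Zfp42 (8.87), Dppa3 (5.84), which keeps Uhrf1 off chromatin in oocytes, and Prdm14 (5.66), a repressor of the de novo enzymes, while Cxxc5 was at -1.25. Of 9 genes listed as methyl-CpG readers, 3 were higher, with Zfp57, which guards imprinted regions, at 4.42. On the same list 4 were lower, with Mbd3 at -1.23, whose listing does not mean that it binds methyl-CpG. Base excision repair and its partners had 4 higher and 4 lower of 14, from Gadd45b at 3.80 to Gadd45a at -2.20. Methyl donor and 2-oxoglutarate supply had 6 higher and 1 lower of 18, led by the threonine dehydrogenase gene Tdh (9.26), with Gldc at -1.15. Genes of S phase also differed, with 11 of 19 higher, 1 lower and summed levels of 4106 to 5681 CPM in stem cells against 2522 to 3143 in progenitors. Of 12 mitosis genes, 1 was called, Bub1 at 1.24. Of markers of other cells, mesenchymal ones had 5 lower and 1 higher (Col1a1, 1.81) of 6, astrocyte ones 2 lower and 1 higher of 4, formative and primed ones 2 higher and 1 lower of 3, and Krt8 was higher (4.64) of 2 trophoblast and endoderm genes. In R9, 1 listed reader of 9 was higher and 2 were lower, Mbd1 (-1.37) and Zbtb33 (-1.54), with Mbd3 at -0.20 and not called. Of 12 mitosis genes 1 was lower there, and mesenchymal markers had 5 lower and none higher of 8. The part of these lists in the members' differences was not tested.

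Tet1 was read from different starts in progenitors and stem cells. Its upstream start cluster, at chr10:62892866-62893012 on the minus strand, holds 6 deposited transcripts and has its nearest start 5 bases from that annotated for Tet1-209, which is 5474 bases upstream of the annotated start of Tet1-210. In R10 progenitors that start carried 0% of Tet1 TPM in OKMS, 0% in OKS and 0.342% and 0% in wild type. In the 7 R10 stem cell libraries it carried 42.3 to 53.3% (median 48.5%). The groups were far apart, and the difference was 48.6 percentage points (SE 2.13), adjusted p = 2.12e-08 by limma over the shares of 10929 start clusters, of which 26.2% were called at 10 points or more. The lowest stem cell value, 42.3%, was that of the unnumbered R1 library, in the same mitochondrial set as the wild-type progenitors. Both R9 stem cell libraries used it too, at 19.9% and 40.6%, against 0 in all 4 R9 progenitor libraries, where Tet1 summed to at most 7.97 TPM.

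The downstream start cluster, chr10:62887384-62887551, is the one covered by RefSeq's Tet1 window (chr10:62887275-62887574, minus strand), shown because this start was in use in both progenitors and stem cells.
Tet1: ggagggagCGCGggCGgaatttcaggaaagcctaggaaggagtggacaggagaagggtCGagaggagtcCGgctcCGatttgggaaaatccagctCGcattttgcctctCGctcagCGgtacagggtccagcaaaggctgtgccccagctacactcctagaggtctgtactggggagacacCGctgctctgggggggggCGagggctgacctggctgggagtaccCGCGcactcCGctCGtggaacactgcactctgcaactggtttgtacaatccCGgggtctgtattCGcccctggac
It held 17 CpG and 1 GGGCGG. The share of Tet1 TPM from this cluster was 14.3, 13.1, 30.4 and 13.7% in R10 progenitors (OKMS, OKS, WT, WT) and 5.80 to 12.0% in stem cells (median 9.22%). The groups did not overlap, but the difference of -9.23 points (SE 3.21), adjusted p = 0.0457, was under the 10-point minimum. In TPM the same start was at 5.07, 3.33, 14.8 and 4.33 in progenitors and at 12.5 to 28.1 in stem cells, so 1 wild-type progenitor library lay inside the stem cell range. Most of the other Tet1 TPM came from transcripts that begin in the 3′ part of the gene, at 1 cluster that held 35.4% in progenitors and 21.9% in stem cells and another that held 25.6% and 8.43%, both called; whether these are fragments was not tested.

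Over the time course the upstream Tet1 start was seen by day 6 in OKMS and in OKS on days 18 and 20. OKMS had 0% on days 2 and 4, 72.4% on day 6, 54.8% on day 10, 41.8% on day 14 and 36.2% on day 20 in R9. OKS had 0% on days 4, 6, 10 and 14 and 19.5% on day 20, and its day-2 library had no Tet1 TPM. These R9 zeros rest on 3 to 6 Tet1 reads a library in the gene table and say little about the share. R10 had OKMS at 0% on days 2 and 4, 44.5% on day 6, 34.2% on day 10 and 11.1% on day 18, and OKS at 0% on days 2 and 6, with 75 and 57 Tet1 reads, and 53.3% on day 18. All 3 wild-type day-2 libraries had 0%. In 2i-LIF the share was 46.3% (OKMS day 14), 46.9% (OKMS day 20) and 40.6% (OKS day 20) in R9, and 54.3% and 53.6% in R10, where the highest stem cell library was at 53.3%. Each of these is 1 library, so the order in time has no replicate within a line and chemistry.

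The leading transcript of the upstream start was short. Tet1.G4914.1243 had 495 bases in 2 exons, matched the junctions of Tet1-209, and went from 0% of Tet1 TPM in R10 progenitors to 38.8% in stem cells (adjusted p = 4.65e-07, limma on transcript shares). The bases after its end were 45% A. Of 32 member transcripts tested, 6 were called, where 19.1% of all 31001 were. Those called higher were this one, Uhrf1.G23200.58 (18.6% to 41.8%) and Tet2.G34352.21 (by 11.5 points), and those called lower were 2 Tet1 transcripts from the 3′ part of the gene and Dnmt1.G52317.297 (14.9% to 4.64%). Of 18 start clusters of members tested, 6 were called, 3 in Tet1, 2 in Tet2 and 1 in Uhrf1, where 26.2% of all 10929 were. Tet2 summed to 5.04 to 6.09 TPM in R10 progenitors, near the minimum of 5 TPM. At a minimum of 10 TPM, 4 of 13 member clusters were called, and Tet2 was not tested. The main Tet2 start fell by 29.4 points, from 77.8% to 48.4% (adjusted p = 0.00143), and the main Uhrf1 start went from 55.8% to 76.2% (adjusted p = 0.0194). In R9 that Uhrf1 start was at 61.3% in progenitors and 60.2% in stem cells and Uhrf1.G23200.58 at 18.7% and 17.2%, neither called. The main Tet2 start was at 66.6% and 3.16% in R9, not called (adjusted p = 0.392). No member transcript of 21 tested was called between 2i-LIF and serum, where 0% of 31298 were; 1 had an unadjusted p under 0.05 in limma.

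Dnmt1 starts were called in R9 and not in R10, and the difference between the chemistries was not tested. In R10 the main Dnmt1 start held 85.9% of Dnmt1 TPM in progenitors and 91.8% in stem cells and was not called. In R9 it held 94.0% in progenitors and 31.7% in stem cells (22.5 and 41.0% in the 2 libraries), and was called lower (adjusted p = 0.0118, limma). The rest of the R9 stem cell TPM came mostly from a start at chr9:20909264 in the 3′ part of the gene, which held 57.5 and 74.2% in stem cells and none in the 4 progenitor libraries (adjusted p = 0.00487). Its transcript, Dnmt1.G52317.358, had 864 bases in 4 exons and matched no annotated transcript (adjusted p = 0.0104). In R10 the same start held 0% in progenitors and 6.93% in stem cells, under the 10-point minimum. These 2 start clusters of 11 from members and 1 transcript of 18 were the R9 calls, where 3% of 11495 start clusters and 0.863% of 30345 transcripts were called; whether the short transcript is a fragment was not tested.

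Dnmt3a had an internal start that was seen in R9 serum cultures of the factor lines, first on day 6 in OKMS and on day 14 in OKS. The cluster, chr12:3891683-3891784 on the plus strand, lies at the start of Dnmt3a-203, 84714 bases after the start of Dnmt3a-201; the short protein from such a start, Dnmt3a2, is known from embryonic stem cells and germ cells. Its RefSeq window (chr12:3891494-3891793) is shown because it covers that start.
Dnmt3a internal: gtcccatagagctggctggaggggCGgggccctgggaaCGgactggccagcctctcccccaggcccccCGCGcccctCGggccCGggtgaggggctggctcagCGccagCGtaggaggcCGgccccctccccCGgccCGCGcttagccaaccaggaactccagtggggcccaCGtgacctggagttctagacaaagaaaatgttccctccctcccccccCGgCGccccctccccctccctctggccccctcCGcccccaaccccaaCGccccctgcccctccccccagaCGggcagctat
It held 18 CpG, 2 GGGCGG and 1 CACGTG. In progenitors the start was at 0 TPM in 7 of 8 libraries and at 0.181 TPM in 1 R10 wild-type library, although the gene as a whole was higher in progenitors than in stem cells.

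In R9 OKMS cells the internal start was at 0 TPM on days 2 and 4, then at 3.46, 7.03, 2.65 and 4.78 TPM on days 6, 10, 14 and 20. In R9 OKS cells it was at 0 up to day 10, at 0.6 TPM on day 14, of a Dnmt3a total of 7.26 TPM, and at 4.29 TPM on day 20. The R9 serum libraries at 0 had 5 to 18 Dnmt3a reads each in the gene table, so the days of onset are uncertain. The R10 day-18 serum libraries gave 1.62 TPM for OKMS and 9.42 TPM for OKS, the highest of all libraries, and the R10 libraries of OKMS to day 10 and of OKS to day 6 were all listed at 0. In 2i-LIF the values were 0.842, 0 and 3.02 TPM in R9 and 0 in both R10 libraries. R10 stem cells held 0.218 to 1.13 TPM, which was 10.0 to 24.7% of their low Dnmt3a total, and both R9 stem cell libraries were listed at 0. The start was not tested, since the Dnmt3a total in stem cells was under the 5 TPM minimum.

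**Figure D2:**
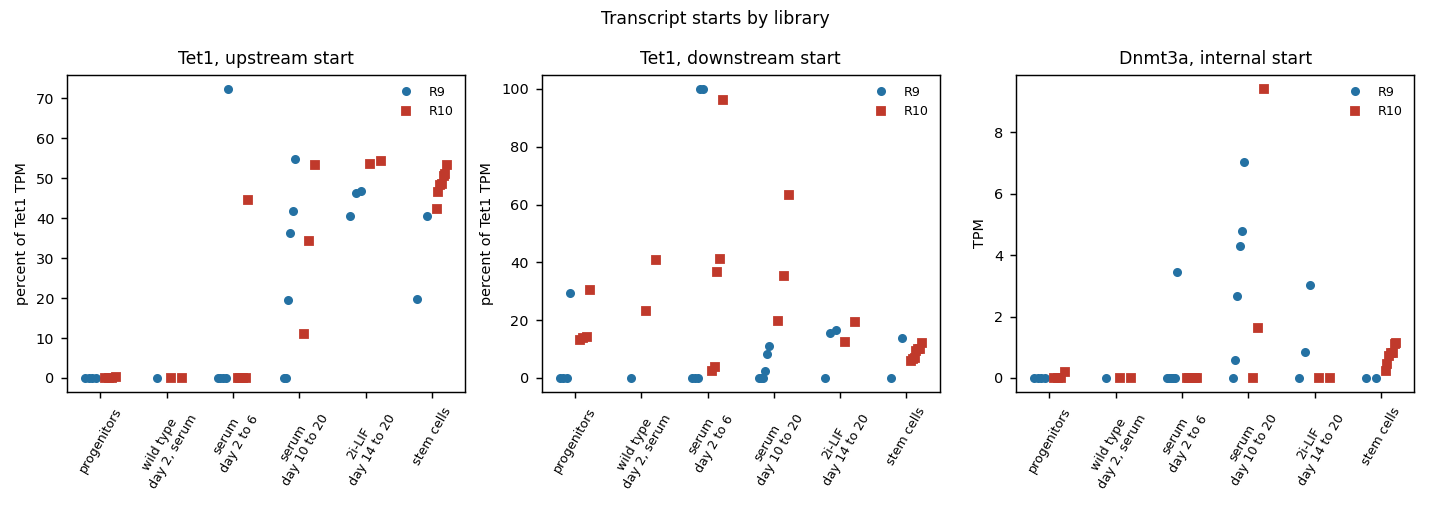
Use of 3 transcript starts by library, with R9 as circles and R10 as squares. The left and middle panels give the upstream and downstream Tet1 starts as percent of Tet1 TPM, and the right panel gives the internal Dnmt3a start in TPM. The upstream Tet1 start is at or near 0 in progenitors and at 42.3 to 53.3% in R10 stem cells, and the internal Dnmt3a start reaches 9.42 TPM in late serum.

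Dnmt3b is spliced in several ways, and 3 cassette exons were defined by its full-splice matches. The 119-base exon at chr2:153684359-153684477 and the 70-base exon at chr2:153683608-153683677, both near the 3′ end, were held by 34.3 ± 8.05% of the spanning Dnmt3b TPM in R10 stem cells (SD, n = 7; 23.5 to 46.6%). In late serum the 119-base exon was held by 62.8% (OKMS day 14), 13.3% (OKS day 14), 53.4% (OKMS day 20) and 62.8% (OKS day 20) in R9, and by 62.3% and 49.9% in OKMS and OKS on day 18 in R10. The R10 day-18 values were above the R10 stem cell range in both lines, and the R9 stem cells were at 53.7% (O4G) and 15.6% (R1). In the R10 OKMS day-18 library Dnmt3b summed to 2.27 TPM, with 22 reads in the gene table, so its share is uncertain. The difference between late serum and stem cells was not tested. The 115-base exon at chr2:153650785-153650899 was held by 17.7 ± 6.72% in R10 stem cells (SD, n = 7). None of the 3 was called between stem cells and progenitors, where Dnmt3b had at most 1.12 TPM over these junctions. The exact two-sided permutation p was 0.0556 for the 115-base exon, the smallest that 7 against 2 libraries allow, and its adjusted p was 0.167.

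A move of wild-type progenitors from NPC medium to serum with LIF and doxycycline for 2 days went with lower levels of the maintenance pair. The parts of this change of medium cannot be told apart. Dnmt1 was at 133 and 95.5 CPM before and at 30.5 and 13.8 CPM after, a log2 difference of -2.39 (SE 0.413), adjusted p = 0.0121. Uhrf1 went from 114 and 86.9 to 1.57 and 3.62 CPM, a log2 difference of -4.87 (SE 0.401), adjusted p = 0.0021. Neither gene had overlapping groups, and the 1 R9 wild-type day-2 library had 15.6 CPM of Dnmt1 and 0 of Uhrf1. Dnmt3a and Tet2 (higher) and Uhrf2, Tet1 and Tdg (lower) had separate groups too. The share of all genes with separate groups is not given. Dnmt1 and Uhrf1 were the 2 calls among 9 members tested, where 26.8% of 14688 genes were called (14.9% higher, 11.9% lower). With 2 libraries a side the calls were fragile: leaving out any 1 of the 4 libraries ended the Dnmt1 call, and only without day-2 replicate 3 did Uhrf1 stay called.

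The other members did not pass in this contrast, though with median centring Tdg (-1.81, adjusted p = 0.0206) and Tet1 (-1.06, adjusted p = 0.038) did. The libraries share only replicate numbers, and with these as a block Tet2 and Tdg passed, as given in the closing section. Tet2 was at 13.7 and 16.9 CPM before and 45.4 and 22.1 after (1.01, adjusted p = 0.12). Tdg was at 6.03 and 6.89 before and 2.35 and 0.659 after (-1.66, adjusted p = 0.0521). Dnmt3a (0.49), Tet1 (-0.90) and the rest had adjusted p of 0.128 or more, and Dnmt3l had no read in either group. Genes of the cell cycle fell with the pair, all 19 of S phase and all 12 of mitosis. Their summed levels were 2522 to 2952 CPM before and 213 to 222 after for S phase, and 3222 to 3392 and 56.7 to 63.4 for mitosis. Of 12 regulators tested, 5 were lower and none higher, among them Cdca7 (-4.62) and Hells (-4.40), which open chromatin for maintenance methylation. Of 17 methyl donor genes 1 was higher and 7 lower (Mthfd2, -4.97), repair genes had 2 higher (Gadd45b, 3.58) and 4 lower of 14 (Neil3, -3.79), and 1 of 9 readers was higher (Zbtb4, 2.26). Astrocyte markers moved as well, with 3 of 5 higher and Gfap at 8.12, and 3 of 8 neural progenitor markers were lower, Olig2 (-4.62), Nes (-1.47) and Ptn (-1.10). The part of these lists in the Dnmt1 and Uhrf1 differences was not tested.

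With the factors present at day 2, no member passed between the factor lines and wild type. In R10, Uhrf1 was at 82.2 CPM in OKMS and 14.2 in OKS, against 1.57 and 3.62 in wild type, a log2 difference of 3.37 (SE 0.792), adjusted p = 0.0936. Dnmt1 was at 90.1 and 31.0 CPM, against 30.5 and 13.8 (1.32, adjusted p = 0.322). Both factor libraries lay above both wild-type libraries for Uhrf1, while Dnmt1 in OKS (31.0 CPM) was level with 1 wild-type library (30.5). Uhrf2 (42.7 and 26.1 against 15.7 and 14.5 CPM) and Tet2 (67.2 and 58.6 against 45.4 and 22.1) also had separate groups. The share of all genes with separate groups is not given. The count was 0 of 9 members in limma, where 0.74% of 15402 genes were called (0.714% higher, 0.026% lower; with median centring 289 of 399 calls were higher); 3 had an unadjusted p under 0.05, and edgeR and DESeq2 on recovered reads each called Uhrf1 (3.99 and 4.07). The other members tested differed by -0.50 for Dnmt3a, 0.21 for Dnmt3b, 1.10 for Uhrf2, -0.02 for Tet1, 0.96 for Tet2, -0.60 for Tet3 and 1.05 for Tdg, with adjusted p from 0.313 to 0.99, and Dnmt3l had no read in these 4 libraries. S phase genes were called higher in 4 of 19 and mitosis genes in 6 of 12, and 1 repair gene, Ung, was higher (4.14). The mitochondrial share was 0.319 and 0.165% in the wild-type libraries and 1.51 and 1.64% in the factor libraries, so the factors and the library set cannot be told apart here. These wild-type libraries are the ones set against progenitors above, so the contrasts share them.

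Along the R9 serum time course Dnmt3b and Dnmt3l rose in both factor lines. Dnmt3b in OKMS was at 0 CPM in the progenitors and 2.26, 4.17, 39.6, 63.3, 61.2 and 108 on days 2, 4, 6, 10, 14 and 20. In OKS it was at 3.37 CPM in the progenitors and 4.01, 1.91, 2.68, 4.46, 22.3 and 162 on days 2, 4, 6, 10, 14 and 20. Dnmt3l in OKMS was at 0 CPM in the progenitors and 0, 0, 23.2, 95.6, 138 and 300.4 on days 2, 4, 6, 10, 14 and 20. Both genes stood above their progenitor level in OKMS by day 6. Dnmt3l in OKS was at 0 CPM in the progenitors and 1.34, 0.954, 0, 0, 7.44 and 152 on days 2, 4, 6, 10, 14 and 20, so OKS followed at day 14. By day 20 both lines were above every R9 stem cell library for both genes, where Dnmt3b was at 13.3 (O4G) and 24.2 (R1) and Dnmt3l at 1.89 (O4G) and 5.58 (R1) CPM. In R10 OKMS on days 2, 4, 6 and 10, Dnmt3b was at 4.74, 1.06, 7.95 and 17.8 CPM and Dnmt3l at 0, 0, 1.77 (2 reads) and 72.1 CPM, so the day-6 levels were below those of R9. In R10 on day 18, Dnmt3b was at 32.6 (OKMS) and 259 (OKS) CPM and Dnmt3l at 97.9 and 30.7, with Dnmt3b in OKMS inside the stem cell range.

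Limma's F test over days, with the factor line as an additive term and 1 library per line and day, called these 2 of 10 members. Over all genes it called 10.7% of 19357 (5.5% higher, 5.24% lower). With edgeR 6 members were called and with DESeq2 5, and edgeR also called more of all genes than limma. The differences from day 0 were 2.55 at day 6 and 6.00 at day 20 for Dnmt3b (adjusted p = 0.0355), and 2.30 and 7.75 for Dnmt3l (adjusted p = 0.0436). Both calls ended without day 14, without day 20, with a pseudocount of 0.25 and with quantile normalization, and that of Dnmt3b also without day 2 or day 4. Dnmt3a had its largest difference at day 20, 1.00 (adjusted p = 0.114), and Tet1 at day 20, 2.81 (adjusted p = 0.148). The largest differences of Dnmt1 and Uhrf1 were negative, -1.78 (adjusted p = 0.0551) and -1.33 (adjusted p = 0.125), both at day 10, and for Uhrf1 edgeR and DESeq2 gave a largest difference of the other sign (1.41 and 1.44). The largest differences of the other members were 0.48 for Uhrf2, 1.64 for Tet2, 1.46 for Tet3 and -1.07 for Tdg, with adjusted p from 0.212 to 0.947. Around them, 9 of 10 pluripotency markers rose and 8 of 9 neural progenitor markers fell. The risen ones include Pou5f1 (9.76), Klf4 (4.32) and Sox2 (1.74), which are also the induced factors. Reads of the introduced factors and of the cells' own genes were not told apart. Of 5 astrocyte markers Gfap (7.22) and Clu (6.92) rose and S100b fell (-6.56). Of 9 mesenchymal markers Col1a1 (5.6) and Postn (3.36) rose and Zeb1 (-4.95) and Twist1 (-2.21) fell. The part of these markers in the rise of Dnmt3b and Dnmt3l was not tested. Of 16 regulators 3 rose, led by Zfp42 (8.65), and of 15 repair genes 3 rose, led by Gadd45b (5.59). Of 9 readers Zfp57 rose (4.48) and Mbd2 fell (-1.51), and of 18 methyl donor genes Tdh rose most (7.56) and Mthfd2 fell (-3.34). Of 19 S phase genes 4 fell, Mcm3 by the most (-1.89).

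**Figure D3:**
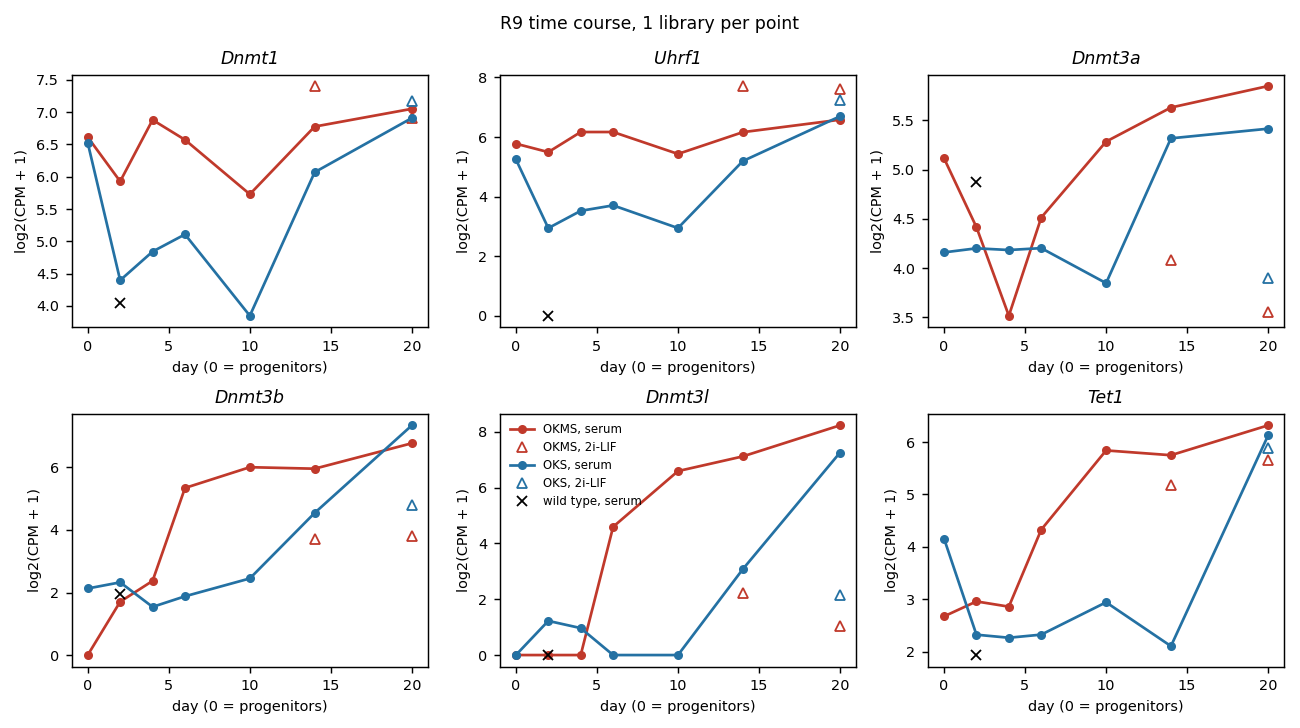
Level of 6 genes, as log2(CPM + 1), by day in R9, 1 library per point; day 0 is the progenitors. Lines join the serum libraries of OKMS (red) and OKS (blue), triangles are 2i-LIF cultures and the cross is the wild-type day-2 library. Dnmt3b and Dnmt3l climb from day 6 in OKMS and from day 14 in OKS, and the 2i-LIF triangles lie below the serum lines for Dnmt3a, Dnmt3b and Dnmt3l and above them for Uhrf1.

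In R9 the factor lines differed in the maintenance pair and in Tet1. Successive days of the OKMS and the OKS line, with 1 library per line and day, served as the pairs. The p-values of this contrast thus do not measure the spread between lines that carry the same factors. On days 2, 4, 6, 10, 14 and 20 of R9 serum culture, Dnmt1 was at 59.9, 117, 94.2, 52.0, 109 and 132 CPM in OKMS and at 20.1, 27.7, 33.5, 13.4, 66.2 and 119 in OKS. OKMS was higher on 6 of 6 days, by a log2 difference of 1.29 (SE 0.248), adjusted p = 0.00304, and the gap was 2.04 on day 4 and 0.14 on day 20. Uhrf1 was at 44.1, 70.9, 71.0, 42.2, 70.7 and 94.8 CPM in OKMS and at 6.69, 10.5, 12.0, 6.69, 35.6 and 103 in OKS. It was higher in OKMS on 5 of 6 days, with a log2 difference of 1.83 (SE 0.349), adjusted p = 0.0029. The gap was 2.46 to 2.65 up to day 10 and -0.11 on day 20. Tet1 was at 6.78, 6.26, 19.1, 56.3, 52.8 and 78.8 CPM in OKMS and at 4.01, 3.81, 4.02, 6.69, 3.31 and 69.0 in OKS. Its OKMS values were above those of OKS on 6 of 6 days, with a log2 difference of 1.66 (SE 0.451), adjusted p = 0.0162. The widest gap, 3.64, was on day 14. In R10, with 1 library per line and day and no test, OKMS was also above OKS on days 2 and 6 and below it on day 18. Dnmt1 was there at 90.1, 112 and 101 CPM in OKMS and 31.0, 40.1 and 147 in OKS on days 2, 6 and 18, Uhrf1 at 82.2, 121 and 86.1 and 14.2, 18.3 and 108, and Tet1 at 41.1, 93.6 and 117 and 28.0, 24.3 and 161. In R9 these 3 of 10 members were called, where 18% of 14277 genes were (6.93% higher, 11% lower; with median centring 1438 of 2672 calls were higher), and the Tet1 call ended without day 6, day 10 or day 14 (adjusted p 0.0533 to 0.0570).

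Dnmt3l (2.34, adjusted p = 0.0599) and Dnmt3b (1.35, adjusted p = 0.0771) were higher in OKMS on 4 of 6 days each and were not called. The other members differed by 0.34 for Dnmt3a, 0.01 for Uhrf2, 0.31 for Tet2, -1.0 for Tet3 and -0.43 for Tdg, with adjusted p from 0.219 to 0.983. S phase genes were called higher in OKMS in 15 of 19 and mitosis genes in 11 of 12, with S phase sums of 2126 to 4327 CPM (median 3200.0) in OKMS and 623 to 3944 CPM (median 808) in OKS. Pluripotency markers summed to 246 to 10627 CPM (median 3815) in OKMS and 227 to 9131 CPM (median 299.5) in OKS, with 5 of 10 called higher. The sums include the induced factors Pou5f1, Sox2 and Klf4, none of them among those called. Astrocyte markers were called lower in OKMS in 4 of 5, with sums of 39.4 to 742 CPM (median 195) in OKMS and 107 to 1698 CPM (median 1320.1) in OKS. Neural progenitor markers were called lower in 5 of 8, with sums of 29.6 to 2829.7 CPM (median 268) and 68.3 to 5198 CPM (median 679), and mesenchymal markers in 2 of 6. The part of these lists in the differences of Dnmt1, Uhrf1 and Tet1 was not tested. Of 12 regulators, 5 were higher (Zfp42 3.27, Cdca7 2.44, Hells 2.07) and Cxxc5 was lower (-1.62). Of 17 methyl donor genes 9 were higher (Mthfd2, 2.28) and Idh1 was lower (-1.08). Repair genes split 4 higher (Ung, 2.02) to 3 lower (Gadd45g, -1.61) of 14, and of 9 readers 2 were lower (Zbtb4, -1.80).

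Dnmt3a, Dnmt3b and Dnmt3l were lower in 2i-LIF than in serum. Reprogramming cells of the same line and day were compared in 5 pairs, given in the order OKMS day 14, OKMS day 20 and OKS day 20 in R9, then OKMS day 18 and OKS day 18 in R10. Dnmt3a was at 48.5, 56.6, 41.7, 38.6 and 125 CPM in serum and at 15.9, 10.7, 14.0, 21.2 and 29.7 in 2i-LIF. It was lower in 2i-LIF in 5 of 5 pairs, with a log2 difference of -1.65 (SE 0.262), adjusted p = 0.000334. Dnmt3b was at 61.2, 108, 162, 32.6 and 259 CPM in serum and at 12.2, 12.9, 26.8, 24.7 and 31.3 in 2i-LIF, lower in 5 of 5 pairs, with a log2 difference of -2.23 (SE 0.312), adjusted p = 0.000103, and of -0.39 in the OKMS day-18 pair. Dnmt3l was at 138, 300.4, 152, 97.9 and 30.7 CPM in serum and at 3.66, 1.07, 3.49, 0 and 0 in 2i-LIF. It fell the most of the members, by a log2 difference of -5.76 (SE 0.389), adjusted p = 5.56e-08. The R10 2i-LIF libraries gave 0 of 1205300 reads, and late serum was at least 25.8-fold higher there than the 3 reads such a count allows over both libraries.

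Uhrf1 went up in the same pairs. It was at 70.7, 94.8, 103, 86.1 and 108 CPM in serum and at 209, 197, 150.1, 272 and 216 in 2i-LIF, higher in 2i-LIF in 5 of 5 pairs, with a log2 difference of 1.16 (SE 0.185), adjusted p = 0.000356. Its partner Dnmt1 was at 109, 132, 119, 101 and 147 CPM in serum and at 169, 119, 143, 164 and 129.8 in 2i-LIF, with a difference of 0.25 (SE 0.182), adjusted p = 0.406. So 4 of 10 members were called, where 12.3% of 14935 genes were (5.95% higher, 6.32% lower). Tdg was lower in 2i-LIF in 5 of 5 pairs (-1.52) at an adjusted p of 0.050, not under the threshold. In the same order of pairs it had 1, 2, 9, 6 and 3 reads in serum and 0, 1, 0, 3 and 0 in 2i-LIF. Its signs and size thus rest on few reads. Tet1 (-0.14, SE 0.212), Tet2 (0.24, SE 0.274), Tet3 (-0.67, SE 0.478) and Uhrf2 (-0.36, SE 0.295) did not pass, with adjusted p from 0.403 to 0.731. In the 3 R9 pairs alone 4 members were called and in the 2 R10 pairs 1, Dnmt3l. Calls over all genes were also far fewer in the R10 pairs, as given in the closing section. The 2i-LIF medium lists no doxycycline, so medium and induction cannot be told apart.

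**Figure D4:**
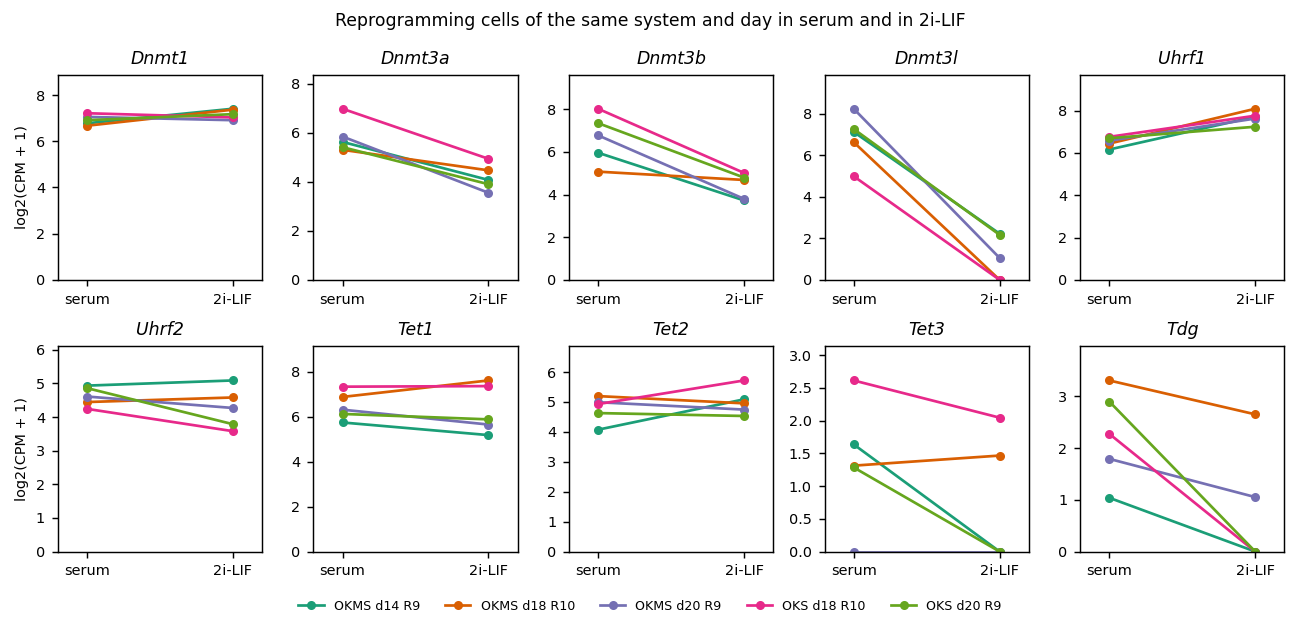
Level of each of the 10 genes, as log2(CPM + 1), in reprogramming cells of the same line and day in serum and in 2i-LIF, 1 line per pair (5 pairs, each point 1 library; the scale starts at 0 and differs between panels). Dnmt3a, Dnmt3b and Dnmt3l slope down and Uhrf1 slopes up in all 5 pairs.

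The listed genes around them were called between media in both directions. Of 15 regulators, Prdm14 (2.93) and Zfp42 (1.30) were higher in 2i-LIF and none lower. Of 14 repair genes, Gadd45g (-3.13) and Gadd45a (-2.20) were lower, and of 18 methyl donor and 2-oxoglutarate genes Idh1 (1.58) and Tdh (1.29) were higher. No reader of 9 was called in limma. S phase genes had 1 higher (Tyms, 1.10) and 1 lower (Pclaf, -1.09) of 19, and no mitosis gene of 12 was called. Pluripotency markers summed to 9719 to 16280.2 CPM (median 13330.0) in 2i-LIF and 6447 to 16286 CPM (median 10549.6) in serum, with 4 of 10 called higher and Utf1 lower (-2.63). These sums too include the factor genes Pou5f1, Sox2 and Klf4, none of them called. Trophoblast and endoderm markers summed to 7.52 to 28.2 CPM (median 15.9) in 2i-LIF and 71.2 to 261 CPM (median 97.3) in serum, with Krt8 (-3.21) and Gata6 (-1.77) called lower of 3 tested. Astrocyte markers summed to 10.5 to 21.2 CPM (median 19.3) and 39.4 to 109.7 CPM (median 97.3), with Clu called lower (-3.44) of 3 tested, and neural progenitor markers to 3.53 to 68.8 CPM and 29.6 to 111 CPM, with Slc1a3 (-2.79) and Pax6 (-1.93) lower of 5. Of formative and primed markers Pou3f1 was lower (-2.04) of 2 tested, and of mesenchymal markers Twist1 (-1.46) of 5. The part of these lists in the fall of the de novo genes was not tested.

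In 2i-LIF the reprogrammed cells could be set against stem cells in the same medium, with 5 against 9 libraries and chemistry as a term. No member of 10 was called in limma, where 3.36% of 14946 genes were (1.87% higher, 1.49% lower), and edgeR and DESeq2 on recovered reads called 0 too; 3 had an unadjusted p under 0.05 in limma, all lower in reprogrammed cells. Dnmt3l was at 3.66, 1.07 and 3.49 CPM in the R9 reprogrammed cells against 1.89 (O4G) and 5.58 (R1), and at 0 in both R10 libraries against 1.87 to 23.4 CPM (median 18.1). The log2 difference was -2.09 (SE 0.619), adjusted p = 0.0563, and within R10 alone it was -3.47 (adjusted p = 0.0127). Tet2 was at 30.0 and 51.6 CPM in the R10 reprogrammed cells, below all 7 R10 stem cell libraries, and was called within R10 (-1.08, adjusted p = 0.0245) but not over both chemistries (-0.44, adjusted p = 0.35). In R9 the sign was the other way, with Tet2 at 33.0, 25.8 and 22.1 CPM against 16.1 (O4G) and 25.1 (R1). Tdg (-1.27, adjusted p = 0.0679) and Dnmt1 (-0.29, adjusted p = 0.231) were lower without passing. Uhrf1 differed by -0.03 (SE 0.129). The other members differed by 0.39 for Dnmt3a, -0.13 for Dnmt3b, 0.31 for Uhrf2, -0.36 for Tet1 and -0.25 for Tet3, with adjusted p from 0.323 to 0.799. A single regulator of 15, Mael, was called, higher at 1.76. Of markers of other cells, astrocyte ones had 1 higher and 1 lower of 3 tested, and mesenchymal ones 1 higher of 4. The 2i-LIF libraries are the same as in the paired comparison of media, and the stem cell libraries the same as in the contrast with progenitors.

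Across all libraries the genes most like each member differed, while some members followed each other. The correlation in R9 and R10 was 0.933 and 0.947 for Dnmt1 with Uhrf1, and 0.917 and 0.740 for Dnmt3b with Dnmt3l. Other pairs were negative, such as Tet1 with Tet3 at -0.680 and -0.719. Likeness was the mean of Pearson's r over the 22 R9 and over the 23 R10 libraries on log2(CPM + 1), among 10678 genes, as a description; libraries of 1 chemistry share medium, day and line, and depth differs between them. Uhrf1 was most like Mcm5 (0.981), Chek1 (0.975) and Mcm6 (0.975). Dnmt1 was most like Lsm2 (0.961), Lig1 (0.958) and Nasp (0.956). Among the de novo genes, Dnmt3b was most like Gng3 (0.923), Eras (0.921) and Utf1 (0.919), Dnmt3l most like Lin28a (0.919), Grb7 (0.906) and B3gnt7 (0.872) and Dnmt3a most like Cdkn1c (0.662), H2bu2 (0.655) and Basp1 (0.636). Tet1 was most like Hat1 (0.921), Rhox5 (0.916) and Esrrb (0.916), and Tet3 most like Gm48623_Cplx2 (0.839), Mef2c (0.831) and Gbp3 (0.83). The 3 genes most like Tet2 included Prune1 (0.82) and Jade1 (0.818). For Uhrf2 the nearest were Zfp68 (0.806), Rab2a (0.797) and Prom1 (0.797), and for Tdg Mtmr2 (0.561), Poglut2 (0.534) and Fam98b (0.51), the lowest values of the set. Mcm5 and Mcm6 are subunits of the replicative helicase and Lig1 joins Okazaki fragments, while Utf1, Lin28a and Esrrb are genes of pluripotent cells.

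Several values carry limits of counting. GENCODE lists pseudogenes of Tdg, Dnmt3a and Dnmt3l and antisense genes of Dnmt3a and Dnmt3b, and whether the deposited counting used strand is not given in the sources used here, so reads of these copies and partners may be shared. Full-splice matches held 2.41% of Tet3 TPM in R10 progenitors, 0% of Tdg and 15.0% of Dnmt1, against 76.2% of Dnmt3l in stem cells. The gene positions, in GENCODE vM21 on GRCm38, are chr9:20907209-20959888 for Dnmt1, chr12:3806007-3914443 for Dnmt3a, chr2:153649450-153687730 for Dnmt3b, chr10:78041947-78063622 for Dnmt3l, chr17:56303321-56323486 for Uhrf1, chr19:30030513-30093722 for Uhrf2, chr10:62804570-62908996 for Tet1, chr3:133463679-133545139 for Tet2, chr6:83362373-83459084 for Tet3 and chr10:82629828-82650799 for Tdg.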

How the data were processed

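The deposited gene table, named after IsoQuant, gives CPM, and a second deposited table gives transcript TPM. Reads were aligned with minimap2 2.24-r1122 to mm10, per the submitters' processing notes. A deposited classification table gives, as a percent, how many of the bases after a transcript's end are A. All CPM were whole multiples of 1 read within 0.02 reads (100%), which gave back counts; CPM summed to 997605 to 999608 per library. Another 13 columns had no matching sample and were left out.

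Genes with at least 1 CPM in as many libraries as the smaller arm were tested by limma 3.58.1 (trend, two-sided) in R 4.3.3, with a pseudocount of 1, which understates changes of low genes. Days were the block for OKMS against OKS, and pairs for the media. Starts within 100 bases were chained. Shares of starts and transcripts were tested by limma for genes of at least 5 TPM and mean shares of at least 5%, and called at 10 points. Exon shares used scipy 1.17.1, and other steps Python 3.11.15.

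All 10 members are named in every comparison, and from each list the called genes with the largest rise and fall and up to 3 more; some results on genes outside the set are not reported here. Of 183 member transcripts, 67 held at least 10% of their gene's TPM in the mean of a group; those called are described. Members and lists were chosen with earlier results of these data known, and the lists share genes (Mbd4, Ung, Pcna, Zfp42). The code was tested on simulated data. Alternatives were other pseudocounts, filters and scalings, edgeR 4.0.16 and DESeq2 1.42.0 on recovered reads, other arms or blocks, and each library, day or pair left out in turn.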

Additional observations from a re-analysis of the deposited data

Results flagged for a closer look

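Uhrf2 in R10 stem cells had 1 library far from the others. O4G replicate 1 was at 22.4 CPM, while the other 6 libraries lay between 7.25 and 13.4 CPM. It was 1 of 48 groups of 4 to 10 libraries examined for a sample apart, where chance gives about 1 in 20. Without it Uhrf2 passed the call between stem cells and progenitors, at -1.01 (adjusted p = 0.00186).

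The Tet2 difference between stem cells and progenitors differed between the chemistries by limma's interaction term, a call that ended with a pseudocount of 0.25 (adjusted p = 0.0541). The difference was 1.28 in R9 and 2.64 in R10, and the term, R9 minus R10, was -1.35 (SE 0.355), adjusted p = 0.0393. It was called for 1 of 10 members, where 3.64% of 15300 genes were called. Tet2 was higher in stem cells in both chemistries.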

How the results depend on the processing

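Of 1190 member values tested under an alternative, 1074 kept their direction and their side of the threshold and 30 changed sign. Uhrf1 in the time course was at 1.41 with edgeR and 1.44 with DESeq2, both called, against -1.33. The other 28 changes of sign passed the threshold under neither setting. Tdg in stem cells in R10 was at -0.14 and became 0.087 (centring). Tet3 in wild-type serum was at 0.0031 and became -0.0055 (pseudocount 0.25), -0.091 (quantile), -0.15 (centring) and -0.80 to 0.80 (1 left out). Dnmt3b in wild-type serum was at 0.58 and became -0.021 to 1.17 (1 left out). Tet1 in the factors was at -0.021 and became -0.50 to 0.46 (1 left out). Tet3 in the factors was at -0.60 and became -1.40 to 0.20 (1 left out). Dnmt3b in the factors was at 0.21 and became -0.39 to 0.81 (1 left out). Uhrf2 in OKMS against OKS was at 0.0078 and became -0.12 to 0.13 (1 left out). Tdg in OKMS against OKS was at -0.43 and became -0.80 to 0.067 (1 left out). Tet1 in the media was at -0.14 and became 0.38 (R10 pairs). Uhrf1 in reprogrammed cells was at -0.028 and became 0.0012 (quantile), 0.040 (centring), 0.017 (DESeq2), 0.044 (R9 libraries) and -0.12 to 0.060 (1 left out). Dnmt3b in reprogrammed cells was at -0.13 and became -0.26 to 0.0079 (1 left out). Tet2 in reprogrammed cells was at -0.44 and became 0.39 (R9 libraries). Uhrf2 in the time course was at 0.48 and became -0.45 (centring). Tet3 in the interaction was at 0.40 and became -0.69 (pseudocount 0.25). The cause was not tested for these or for the shifts below; a side left with 1 library is assumed to vary like the other. Members called became 4 for wild-type serum with median centring, 1 for the factors at day 2 with centring, edgeR or DESeq2, 5 for OKMS against OKS with centring, 1 for the media in R10 pairs, 1 for reprogrammed cells with a pseudocount of 0.25 and 2 in R10, and 0 (with 370 genes) for the interaction with that pseudocount. In the time course they were 0 with that pseudocount, 0 with quantile normalization, 6 with centring, 6 with edgeR (4573 genes) and 5 with DESeq2. Genes called for the factors were 74 (pseudocount 0.25), 181 (5 CPM), 29 (quantile), 399 (centring), 334 (edgeR) and 464 (DESeq2); for the media 1166 in R9 and 188 in R10 pairs; and for reprogrammed cells 246 (5 CPM), 223 (edgeR), 300 (DESeq2), 110 (R9) and 1438 (R10). Usage in R9 gave 2 start clusters of members (345 in all) and 1 transcript (262 in all), and usage between media 3 transcripts, with no member among them, at a gene total of 10 TPM.

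Leaving out 1 library, day or pair at a time gave, for members and then for all genes, 7 to 9 and 6943 to 7267 for stem cells in R10, 2 to 6 and 4038 to 5880 in R9, 0 to 1 and 0 to 1141 for wild-type serum, 0 and 0 to 115 for the factors, 2 to 5 and 1686 to 3236 for OKMS against OKS, 4 to 5 and 1210 to 1908 for the media, 0 to 1 and 267 to 623 for reprogrammed cells, and 0 to 2 and 601 to 2423 for the time course. Members that gained a call this way were Dnmt1 (without wild-type progenitor replicate 2 or the unnumbered R1 library) and Uhrf2 (without either wild-type progenitor library or O4G replicate 1) in R10, Dnmt3a and Tet3 (without the OKS progenitors) and Uhrf2 (without O4G) in R9, Dnmt3b (without day 2 or 20) and Dnmt3l (without day 2 or 4) between factor lines, Tdg (without the R10 OKMS pair) between media, Dnmt1 (without day 4) in the time course, and, lower in reprogrammed cells, Dnmt3l (adjusted p = 0.0203 to 0.0461 without any 1 of OKMS day 14, OKS day 20 or O4G in R9 or the unnumbered R1) and Tdg (without R10 OKMS). Start clusters of members ranged from 5 to 6 (2414 to 3456 in all) and transcripts from 4 to 7 (4900 to 7299 in all). Median centring moved the median of all genes by 0.23 and 0.16 for stem cells (R10, R9), -0.15 for wild-type serum, -0.20 for the factors and 0.15 for OKMS against OKS. In the time course, where each gene gives its largest difference, it moved single genes by a median of -0.27 and the median of those differences from 0.63 to -0.45.

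The wild-type progenitor and day-2 libraries of R10 share only replicate numbers; the deviations of same-numbered libraries correlated at 0.47 over 14688 genes and 2 pairs. With the replicate block 4 members were called in place of 2, with Tet2 (1.01, adjusted p = 0.0132) and Tdg (-1.66, adjusted p = 0.00608) added.

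Depth limits the 2i-LIF values: of 1205300 reads in the 2 R10 libraries Tdg and Tet3 had 3 each and Dnmt3l 0, and in the 3 R9 libraries Tdg had 1 and Tet3 0. TPM keep no depth, so shares of starts carry no counting interval.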
